A study of Mus musculus with 6 samples.

Results

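The ionotropic receptor subunits for GABA, glycine and glutamate were examined in RNA-seq libraries labelled as sciatic nerve from WT mice and mice lacking Dok6, taken at postnatal day 3. Subunit genes were taken by symbol, which gave 42 of the 54532 gene rows: 19 GABA-A, 5 glycine, 4 AMPA, 5 kainate, 7 NMDA and 2 delta receptor genes. The control group held 3 WT mice and the mutant group 3 mice (labelled Dok6 KO), with 1 library per mouse. The mutants carry a germline deletion made by crossing floxed Dok6 mice, in which exon 3 is targeted, with EIIA-cre mice, whose recombinase acts in the early embryo, so the deletion is not limited to one cell type. Both groups share the C57BL/6 background, whose substrain is not given in the sources used here. The study calls the controls littermates, without saying which of these mice shared a litter, and did not separate the sexes. The comparison asked whether transcripts of the nerve differ when Dok6, an adaptor protein of neurotrophin receptor signaling, is lost.

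GABA-A and glycine receptors are chloride channels assembled from subunits around a central pore, and the alpha, beta and gamma subunits of the GABA-A receptor set where it sits and how it responds to transmitter. AMPA, kainate and NMDA receptors are cation channels opened by glutamate, while delta receptors belong to the same gene family and are bound by cerebellins at synapses. In the developing spinal cord and brain several subunits are exchanged with age, such as the glycine receptor alpha 2 subunit for alpha 1, and in sensory neurons the kainate subunit encoded by Grik1 forms receptors on the axon.

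Total counts per library ran from 17699904 to 18678170, so the 3-count detection floor lay between 0.156 and 0.172 CPM (depth-scaled counts, normalized with the trimmed mean of M-values, TMM). Dok6 itself stood at 17.8, 11.9 and 17.5 CPM in WT and at 7.26, 5.78 and 7.15 CPM in the mutants, and no mutant overlapped a WT mouse. It fell by 1.23 on the log2 scale (SE 0.20, adjusted p = 0.0118, edgeR's quasi-likelihood F-test after Benjamini-Hochberg adjustment). Marker levels went against the tissue label. Summed over 10 Schwann cell markers, the level was 73.4 to 118 CPM in WT and 250 to 3670 CPM in the mutants. In contrast, all 11 spinal interneuron markers reached at least 1 CPM in every library, with sums of 1115 to 1228 CPM in WT and 862 to 1010 CPM in the mutants. The values below therefore describe the libraries carrying the sciatic nerve label, and in such bulk RNA fewer cells of a type and less RNA per cell cannot be told apart.

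Upstream sequence is shown for Gabra2, the subunit gene that rose, for its neighbour Gabrg1, which did not pass the test, and for Glra2 and Grin1, which fell. Each line holds the 250 bases before the annotated RefSeq start site, read 5′ to 3′ on the gene's own strand from build GRCm38.p6, with no annotated exon inside it. Capitals mark 3 motifs, searched on both strands, so that a reverse complement is marked as well. They are the GC box, spelled GGGCGG, the box of the letters CCAAT and the TATA box, spelled TATAAA. No marked motifs overlap in the lines shown. The stretches lie on the minus strand at chr5:71095850-71096099 (Gabra2), chr5:70842618-70842867 (Gabrg1), chrX:165327394-165327643 (Glra2) and chr2:25319188-25319437 (Grin1).
Gabra2: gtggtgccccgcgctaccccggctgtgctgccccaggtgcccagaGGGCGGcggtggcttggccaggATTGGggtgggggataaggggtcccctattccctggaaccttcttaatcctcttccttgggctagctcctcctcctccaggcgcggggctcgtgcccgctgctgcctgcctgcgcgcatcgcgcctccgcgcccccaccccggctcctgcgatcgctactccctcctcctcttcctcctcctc
Gabrg1: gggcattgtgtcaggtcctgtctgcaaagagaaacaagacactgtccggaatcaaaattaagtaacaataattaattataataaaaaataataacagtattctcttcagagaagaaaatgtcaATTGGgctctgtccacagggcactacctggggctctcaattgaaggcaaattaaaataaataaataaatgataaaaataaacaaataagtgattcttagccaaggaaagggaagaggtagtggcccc
Glra2: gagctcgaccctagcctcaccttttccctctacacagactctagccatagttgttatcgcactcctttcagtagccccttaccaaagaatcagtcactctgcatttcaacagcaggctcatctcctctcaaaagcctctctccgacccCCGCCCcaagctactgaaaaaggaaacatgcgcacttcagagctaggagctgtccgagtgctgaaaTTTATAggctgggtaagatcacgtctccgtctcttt
Grin1: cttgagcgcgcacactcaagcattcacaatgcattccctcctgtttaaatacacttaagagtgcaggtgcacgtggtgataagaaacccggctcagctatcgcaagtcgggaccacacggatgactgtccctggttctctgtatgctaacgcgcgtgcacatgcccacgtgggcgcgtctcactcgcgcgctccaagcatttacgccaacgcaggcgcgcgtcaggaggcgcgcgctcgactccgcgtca
The Gabra2 stretch had a GC content of 70.0% and 18 CpG dinucleotides, against 35.6% and 1 for Gabrg1. That of Glra2 held 50.4% GC and 8 CpG, with a TATA box in reverse orientation with 30 bases between it and the start, and that of Grin1 held 58.8% GC and 27 CpG without any of the motifs. RefSeq entries were found for 29 of the 42 genes, giving 33 start sites, of which 42.4% held a GC box, 15.2% a TATA box and 42.4% a CCAAT box. Over all 32851 start sites the shares were 32.7%, 12.4% and 33.8%. A match describes letters only.

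Of the 42 subunit genes, 36 had enough counts to be tested, and 34 of these reached 1 CPM in every mouse. The order of WT levels, given as RPKM, the CPM per kilobase of the authors' gene length, was led by Grik5, a high-affinity kainate subunit, at 61.2 ± 2.33 (SD, n = 3), and Glra2 at 46.6 ± 3.41, Gabra3 at 44.2 ± 6.06 and Gabra5 at 43.3 ± 11.5 RPKM were also near the top. The WT range of Grik5 lay above those of the other three, which overlapped from each gene to the next. Gria4, Glrb, Gria1, Grin1 and Grin2d came after them, with means of 27.1 to 32.0 RPKM and overlapping neighbours. At the other end, 10 genes averaged under 1 RPKM in WT. Gabra6, a cerebellar granule cell subunit, had 0 counts in all 6 libraries, which allows a level up to the floor of each library. The other 5 genes that were not tested, Gabrd, Gabrp, Gabrr2, Gabrr3 and Glra4, had at most 7 counts in any library except for Gabrp, with 26 in mutant mouse 1.

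**Figure D1:**
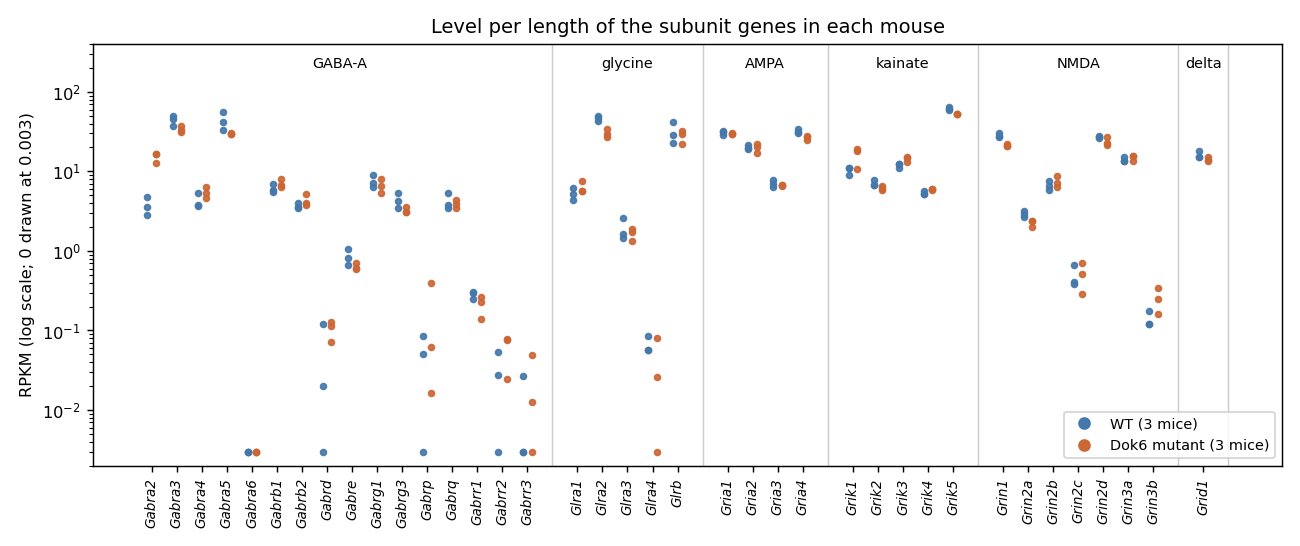
Level per length (RPKM, log axis) of 38 subunit genes by receptor class, with 1 point per mouse, WT in blue and Dok6 mutant in orange, and zeros drawn at the bottom. Gabra2 shows a clear gap between the groups, with WT levels of 2.84 to 4.70 RPKM.

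Gabra2 rose in the Dok6 mutants and 4 subunit genes fell, Glra2 and Grin1 among them, while the other 31 tested subunit genes did not pass the adjusted p threshold of 0.05. The 1 higher gene of 36 is to be read against 8.62% of all 17099 tested genes called higher, and the 4 lower genes against 6.01% called lower. Leaving out WT mouse 2 reduced the lower genes to 0, and leaving out mutant mouse 1 or 2 reduced them to 1, Glra2. Fold changes were negative for 24 genes and positive for 12, with a median of -0.17 on the log2 scale, where that of all tested genes was 0.01. Groups did not overlap for 3 genes in the higher direction, where 19.6% of all tested genes did so, and for 11 in the lower direction, where the share was 18.7%. With the fold threshold of the study's methods, an absolute log2 fold change above 2, Gabra2 alone was called, against 1.19% of all tested genes.

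**Figure D2:**
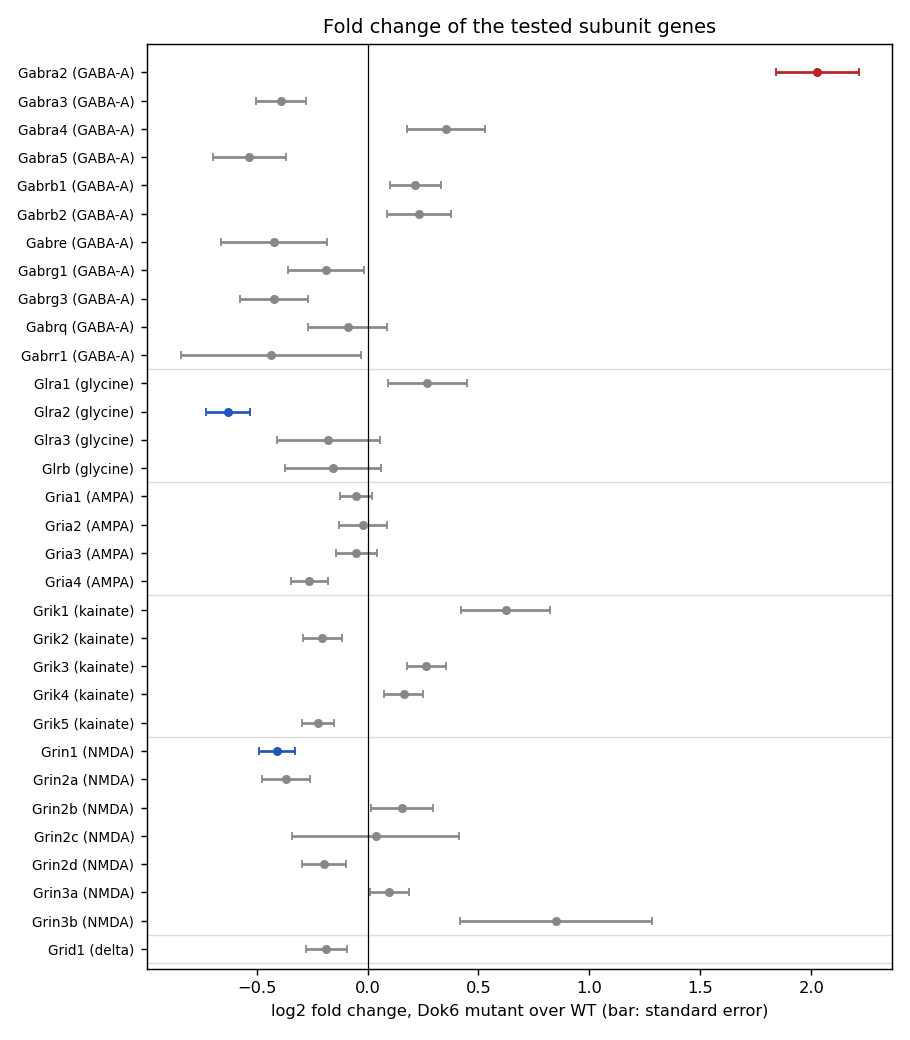
Log2 fold change of mutant over WT for 32 tested subunit genes, grouped by receptor class, with standard errors as bars, red for the gene called higher, blue for those called lower and grey for the rest. Gabra2 at 2.03 stands apart from the other 31 genes drawn, which lie between -0.63 and 0.85.

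Among the GABA-A alpha subunits, which shape the response to GABA and to benzodiazepines, Gabra2 (ENSMUSG00000000560, chr5:70957597-71095849, minus strand) was the one that passed edgeR's test. Gabra2 was measured at 27.7, 21.7 and 35.9 CPM in WT mice 1 to 3 and at 127, 125 and 96.3 CPM in mutant mice 1 to 3. The lowest mutant was 2.68 times the highest WT mouse. Gabra2 rose by 2.03 on the log2 scale (SE 0.19, 95% interval 1.66 to 2.39, adjusted p = 0.00399, edgeR's quasi-likelihood F-test after Benjamini-Hochberg adjustment), a ratio of group means of 4.08. It passed the adjusted p threshold in all 13 alternative fits. Gabra2 mRNA is known to differ between C57BL/6 substrains, and since the substrain of the mice is not given, genetic background and Dok6 genotype cannot be told apart for it here.

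On chromosome 5, Gabra2 lies in a cluster of GABA-A genes with Gabrg1, Gabra4 and Gabrb1, and these were the 3 tested genes within 1000 kb of it. Gabrg1, a gamma subunit gene whose upstream sequence is shown above, was at 50.2, 56.9 and 70.5 CPM in WT and 51.8, 62.7 and 41.6 CPM in the mutants. Gabra4 was at 22.8, 22.1 and 32.6 CPM in WT and 38.5, 32.2 and 28.1 CPM in the mutants. The groups overlapped for both. Gabrb1 differed by 0.22 (SE 0.12), Gabra4 by 0.35 (SE 0.18) and Gabrg1 by -0.19 (SE 0.17) on the log2 scale, so 0 of the 3 neighbours passed edgeR's test, 0 had an unadjusted p under 0.05, and DESeq2 and limma voom called 0. Gabra4 and Gabrb1 start 195 bases apart on opposite strands with overlapping exons, and their counts could be shared if strand was not used in counting.

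Gabra3 and Gabra5, alpha subunits prominent in the immature nervous system, supplied most of the alpha transcript. Per length, Gabra3 made up 45.3% ± 5.35 (SD, n = 3) of the alpha sum in WT and 38.7% ± 3.70 in the mutants, and Gabra5 43.6% ± 4.04 and 34.3% ± 0.808. Gabra2 accounted for 3.82% ± 0.870 in WT and 17.4% ± 2.39 in the mutants. These shares are descriptions, since 3 mice against 3 cannot reach an exact two-sided permutation p under 0.10, and a rise of one gene lowers the share of the others. Gabra5 was at 97.5, 123 and 165 CPM in WT and 89.01, 90.001 and 87.8 CPM in the mutants, which did not overlap, with a log2 fold change of -0.53 (SE 0.16) and an adjusted p of 0.0612 by edgeR's quasi-likelihood F-test after Benjamini-Hochberg adjustment. Gabra3 missed the threshold more narrowly, at -0.39 (SE 0.11, adjusted p = 0.0520 in the same test). Both were called lower by DESeq2, without the filter and without WT mouse 1, and Gabra3 also with RLE scaling and without mutant mouse 3.

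Among the beta and gamma subunits, Gabrb1 had a log2 fold change of 0.22, Gabrb2 of 0.23, Gabrg1 of -0.19 and Gabrg3 of -0.42, and these did not pass edgeR's test, though Gabrg3 was called lower by DESeq2 and without the filter. The epsilon, theta and rho genes Gabre, Gabrq and Gabrr1 had log2 fold changes of -0.42, -0.09 and -0.44, and none passed.

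**Figure D3:**
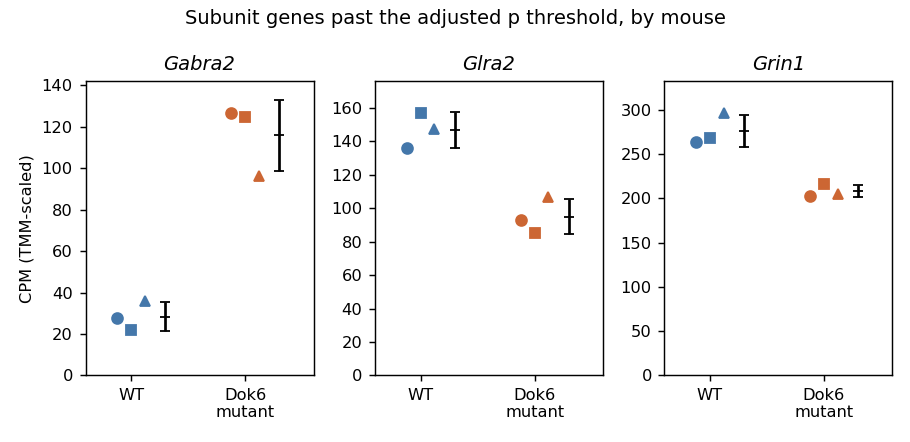
CPM of 3 called subunit genes in each mouse (linear axes from 0), WT in blue and Dok6 mutant in orange, with circles, squares and triangles for mice 1, 2 and 3 and the mean ± SD beside each group. Gabra2 runs from 21.7 to 35.9 CPM in WT and from 96.3 to 127 CPM in the mutants, and for Glra2 and Grin1 every mutant lies below every WT mouse.

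Glra2 (chrX:165129017-165327393, minus strand), the glycine receptor alpha subunit of immature neurons, fell. Its levels were 136, 157 and 148 CPM in WT and 93.2, 85.4 and 107 CPM in the mutants. The groups did not overlap, and mutants averaged 64.7% of WT. The decrease was 0.63 on the log2 scale (SE 0.10, adjusted p = 0.0118, edgeR's quasi-likelihood F-test after Benjamini-Hochberg adjustment), and the adjusted p became 0.0699 without WT mouse 2.

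The adult alpha subunit gene Glra1 was at 14.7, 10.7 and 12.7 CPM in WT and 18.5, 13.9 and 13.6 CPM in the mutants, with a log2 fold change of 0.27 (SE 0.18) that did not pass the test. The ratio of Glra1 to Glra2 per length was 0.142, 0.0885 and 0.112 in WT and 0.259, 0.212 and 0.167 in the mutants. The ratios did not overlap, with Glra2 supplying 86.6% ± 2.22 of the glycine alpha sum in WT and 78.9% ± 3.67 in the mutants. Glrb, the beta subunit that anchors the receptor to gephyrin, was at 105, 134 and 193 CPM in WT and 136, 149 and 103 CPM in the mutants. These groups overlapped widely (log2 fold change -0.16, SE 0.22), and Glra3 also did not pass (-0.18, SE 0.23).

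None of the 4 AMPA and none of the 5 kainate subunit genes passed the adjusted threshold, while 1 AMPA and 4 kainate genes had an unadjusted p under 0.05 in edgeR. The share of all tested genes at that unadjusted cut-off was not counted, so these counts have no background to be read against. DESeq2 called Gria4 and Grik5 lower and Grik1 higher, and limma voom called 0 in both classes. Gria1, the AMPA gene highest per length over all 6 mice, was at 194, 187 and 176 CPM in WT and 176, 179 and 182 CPM in the mutants, with a log2 fold change of -0.05 (SE 0.07). Its groups overlapped, as did those of Gria2, which sets calcium permeability (-0.02, SE 0.11). Gria4 was the AMPA gene whose groups did not overlap, at -0.26 (SE 0.08) and an adjusted p of 0.0640 by edgeR's quasi-likelihood F-test after Benjamini-Hochberg adjustment.

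Grik5 was at 329, 314 and 305 CPM in WT and 274, 269 and 270 CPM in the mutants. All mutants were lower, but the difference of -0.22 on the log2 scale (SE 0.07) had an adjusted p of 0.0735 in edgeR's quasi-likelihood F-test after Benjamini-Hochberg adjustment. In the other direction, Grik3 was higher in every mutant (log2 fold change 0.26, SE 0.09, adjusted p = 0.0734 in the same test), and so was Grik4 (0.16, SE 0.09, adjusted p = 0.237), without passing. Grik1, the kainate subunit of small sensory neurons, was at 61.3, 73.9 and 73.6 CPM in WT and 71.7, 120 and 130 CPM in the mutants. Mutant mouse 1 lay within the WT range and the other two mutants above it, with a log2 fold change of 0.62 (SE 0.20, adjusted p = 0.0685 in the same test). The summed level of the sensory neuron markers (12 of 13 listed had a row) was also lowest in mutant mouse 1, at 283, 769 and 675 CPM in mutant mice 1 to 3, against 108 to 119 CPM in WT. Of those markers 11 of 12 rose, Mrgprd was at or under the floor in WT, and their part in the Grik1 values was not tested. Grik5 made up 63.8% ± 1.95 of the kainate sum per length in WT and 55.4% ± 3.09 in the mutants, and Grik1 10.8% ± 1.24 and 16.7% ± 4.25.

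**Figure D4:**
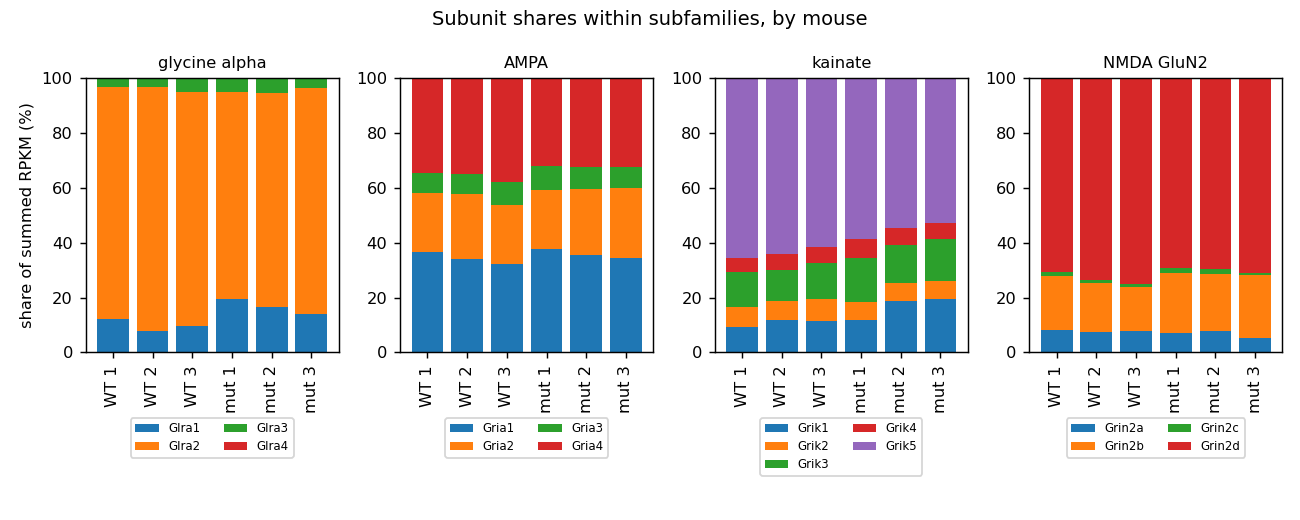
Share of the summed RPKM taken by each gene within 4 subfamilies, with 1 stacked bar per mouse (percent axis from 0). In the glycine alpha panel the Glra2 share is 85.0 to 89.1% in WT and 75.6 to 82.8% in the mutants.

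Grin1 (chr2:25291181-25319187, minus strand) encodes the subunit that NMDA receptors require, and it fell in the mutants. It was at 264, 268 and 297 CPM in WT and 203, 216 and 205 CPM in the mutants. No mutant reached the WT range, the mean was 75.3% of WT, and Grin1 fell by 0.41 on the log2 scale (SE 0.08, adjusted p = 0.0184, edgeR's quasi-likelihood F-test after Benjamini-Hochberg adjustment). Without WT mouse 2, mutant mouse 1 or mutant mouse 2, the adjusted p was 0.0791, 0.0649 or 0.0503. Exons of the antisense gene Grin1os overlap it, so the 2 genes cannot be told apart if counting ignored strand.

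Grin2d, a GluN2 subunit known from early development and the brainstem and spinal cord, led the GluN2 genes with 73.1% ± 2.36 of their sum per length in WT and 69.9% ± 1.06 in the mutants. Its levels were 183, 176 and 183 CPM in WT and 151, 141 and 181 CPM in the mutants, the last of which lay in the WT range (log2 fold change -0.20, SE 0.10). Without mutant mouse 3 the log2 fold change was -0.31, with an adjusted p of 0.0333 in edgeR's quasi-likelihood F-test, past the threshold. Grin2b was at 190, 161 and 145 CPM in WT and 176, 158 and 218 CPM in the mutants, and Grin2a, which joins receptors later in development, was at 56.5, 47.5 and 51.7 CPM in WT and 42.1, 42.7 and 35.98 CPM in the mutants. Grin2a levels did not overlap while Grin2b levels did. The log2 fold changes were -0.37 (SE 0.11, adjusted p = 0.0526) and 0.16 (SE 0.14, adjusted p = 0.463) by edgeR's quasi-likelihood F-test after Benjamini-Hochberg adjustment. Grin2a was called lower with RLE scaling, without the filter and by DESeq2. The Grin2a to Grin2b ratio per length was 0.412, 0.410 and 0.495 in WT and 0.331, 0.375 and 0.229 in the mutants. Grin3a, a subunit that lowers calcium entry, had a log2 fold change of 0.10, and the sparse genes Grin2c and Grin3b had 0.04 and 0.85 with SEs of 0.38 and 0.43.

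Of the delta receptor genes, Grid1, at 89.9, 90.9 and 107 CPM in WT and 89.2, 81.2 and 82.2 CPM in the mutants, had a log2 fold change of -0.19 (SE 0.09). The highest Grid1 mutant was just below the lowest WT mouse.

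Summed per length, the 42 genes came to 569 ± 39.4 RPKM in WT and 500 ± 11.1 RPKM in the mutants (SD, n = 3). By class the sums were 199 ± 25.1 and 169 ± 3.52 for GABA-A, 84.8 ± 11.5 and 66.0 ± 2.80 for glycine, and 79.7 ± 1.18 and 70.5 ± 4.54 for NMDA receptor genes. They were 89.7 ± 1.78 and 82.7 ± 4.72 for AMPA and 95.9 ± 1.34 and 94.8 ± 4.46 for kainate receptor genes, and the kainate sums overlapped between the groups. The WT mice varied among themselves, as WT mouse 3 was the highest WT mouse for 21 of the 36 tested genes, WT mouse 1 for 9 and WT mouse 2 for 6.

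Companion genes were grouped by role. Over all these lists, 4 of 91 tested genes were higher and 10 were lower in edgeR, or 4.396% and 10.99%, where 8.62% and 6.01% of all tested genes were higher and lower. Of 14 genes for making, degrading and moving GABA and glycine, 1 was called, the vesicular transporter Slc32a1, which fell from 159, 177 and 181 CPM to 144, 125 and 147 CPM (log2 fold change -0.32, SE 0.09, adjusted p = 0.0487, edgeR's quasi-likelihood F-test after Benjamini-Hochberg adjustment). DESeq2 called 2 genes of this list and limma voom 0. Among 12 clustering and trafficking genes of inhibitory receptors, 2 fell, the GABARAP relatives Gabarapl1 (-0.30) and Gabarapl2 (-0.29), and 0 rose. Nlgn4l, Insyn2a and Insyn2b from that list were not matched by symbol and were not analysed here. The list medians were 0.00 and -0.08 against 0.01 for all tested genes.

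Chloride transporters decide whether GABA and glycine depolarize or inhibit a neuron. Of 5, 2 rose, the potassium-chloride cotransporters Slc12a4 (0.89, SE 0.23) and Slc12a7 (0.75, SE 0.18), both found widely outside neurons, where 8.62% of all tested genes were higher. DESeq2 called both and limma voom only Slc12a7. Slc12a5, the neuronal extruder KCC2, was at 498, 512 and 639 CPM in WT and 498, 469 and 511 CPM in the mutants, and the importer Slc12a2 at 71.2, 63.7 and 78.7 and at 69.5, 112 and 76.9 CPM. Their groups overlapped, with a ratio per length of Slc12a5 to Slc12a2 of 6.13, 7.03 and 7.11 in WT and 6.28, 3.68 and 5.81 in the mutants.

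Of 40 auxiliary and scaffold genes of glutamate receptors, 7 fell (17.5%, against 6.01% of all tested genes) and 1 rose (2.5%, against 8.62%), with a list median of -0.10. The 7 included Cbln1 (-0.51, SE 0.12) and Cbln2 (-0.39, SE 0.10), secreted ligands of delta receptors. Nptxr (-0.40, SE 0.08), which helps gather AMPA receptors, Cacng2 (-0.33, SE 0.08), which encodes the AMPA auxiliary subunit stargazin, and Lrrtm1 (-0.36, SE 0.10), a synaptic adhesion gene, fell too. The gene that rose was the postsynaptic scaffold Shank3 (0.36, SE 0.10, adjusted p = 0.0464 in edgeR's quasi-likelihood F-test after Benjamini-Hochberg adjustment). DESeq2 called 9 genes of this list, Shank3 among them, and limma voom called 8, without Shank3. Of 9 tested metabotropic GABA and glutamate receptor genes 0 passed edgeR's quasi-likelihood F-test after Benjamini-Hochberg adjustment (list median -0.05), with 0 at an unadjusted p under 0.05 and 0 by DESeq2 or limma voom, and Grm6 was at or under the floor in WT. Of 11 genes for making and moving glutamate, 1 rose, the vesicular transporter Slc17a7, from 0.975, 0.401 and 0.515 CPM to 3.16, 9.49 and 8.80 CPM (log2 fold change 3.49, SE 0.50).

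Markers of several cell types moved between the groups beside these results, and their counts stand against 8.62% of all tested genes called higher, 6.01% called lower and 18.7% not overlapping in the lower direction. Spinal interneuron markers, 4 of which are also in the list for GABA and glycine synthesis, included 3 of 11 that fell, Pax2, Gbx1 and Slc32a1, and 0 that rose, and their summed level did not overlap between groups, as for Glra2 and Grin1. DESeq2 called 6 of these 11 markers and limma voom 3, with Slc32a1 not among the latter. By the unadjusted p of edgeR, 9 of the 11 were under 0.05. The share of all tested genes at that unadjusted cut-off was not counted, here or for the lists below. Among markers of neurons of any kind 0 of 10 were called by edgeR or limma voom, 3 had an unadjusted p under 0.05 and DESeq2 called 2, with sums of 8224 to 8980 CPM in WT and 6938 to 8299 CPM in the mutants. Sensory neuron markers rose in 11 of 12 tested, from sums of 108 to 119 CPM in WT up to 283 to 769 CPM in the mutants. Schwann cell markers rose in 6 of 9 tested (4 by DESeq2 and 0 by limma voom) and skeletal muscle markers in 8 of 9 tested (8 by DESeq2 and 4 by limma voom), the latter from 28.9 to 47.3 CPM up to 139 to 650 CPM, with Pmp2, Tnnc2 and Myog at or under the floor in WT. Fibroblast markers rose in 3 of 6, from sums of 296 to 1129 up to 1921 to 3056 CPM. Motor neuron markers had 1 of 6 higher and 1 lower, with sums of 139 to 177 and 147 to 197 CPM. Of 7 astrocyte and 5 tested oligodendrocyte markers 0 were called by edgeR, DESeq2 or limma voom, and 0 and 1 had an unadjusted p under 0.05, with sums of 1709 to 2241 and 1412 to 2796 CPM for astrocytes and of 209 to 475 and 229 to 615 CPM for oligodendrocytes, Opalin being at or under the floor in WT. The part of any of these cell types in the 5 called subunit genes was not tested.

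**Figure D5:**
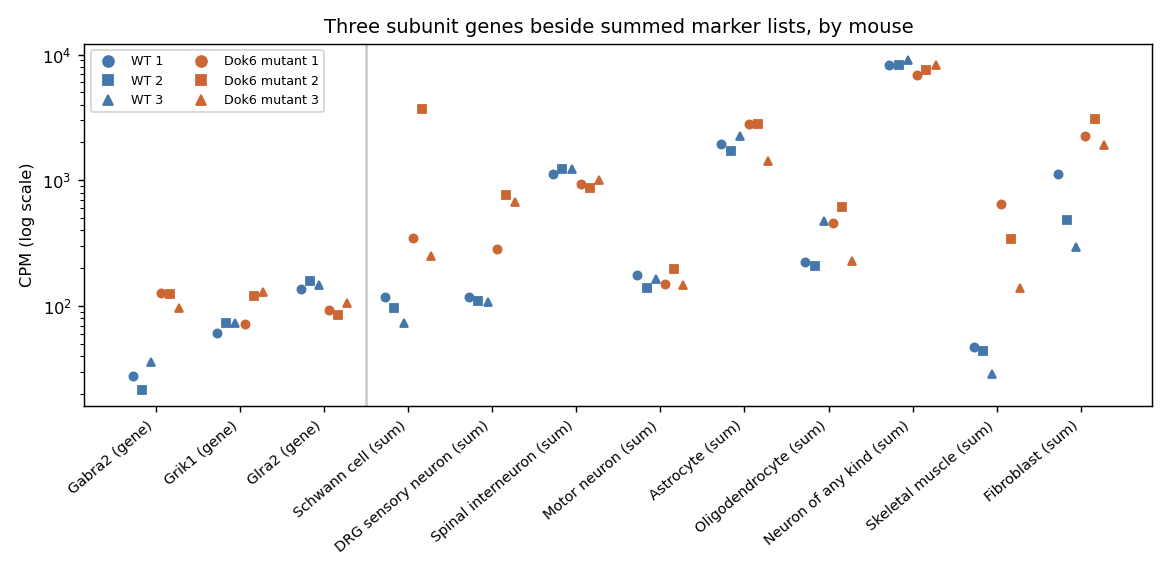
CPM of Gabra2, Grik1 and Glra2 and summed CPM of 9 marker lists in each mouse (log axis), WT in blue and Dok6 mutant in orange, with circles, squares and triangles for mice 1, 2 and 3. Sensory neuron markers sum to 108 to 119 CPM in WT and 283 to 769 CPM in the mutants. Spinal interneuron markers sum to 1115 to 1228 CPM in WT and 862 to 1010 CPM in the mutants.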

How the data were processed

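RNA-seq libraries labelled sciatic nerve were made at postnatal day 3 from 3 WT mice and 3 Dok6 mutants. The authors deposited 1 table of whole-number counts per gene with symbols and gene lengths. The submitters' processing notes name mm10, while aligner, counter and use of strand are not given in the sources used here. The labels name the NEBNext Ultra RNA kit and the study's methods its directional version. Columns were matched to samples by genotype and mouse number, and 0 columns were left over. Members and gene lists were chosen with earlier results of these data known.

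Genes were filtered with filterByExpr (17099 of 54532 kept) and scaled by TMM. The mutant was compared with WT by the edgeR 4.0.16 quasi-likelihood test in R 4.3.3, with Benjamini-Hochberg adjustment over all tested genes and a threshold of 0.05. The study's methods use DESeq2, tried here as DESeq2 1.42.0, run on all genes with a count, beside limma 3.58.1 (voom), scaling by RLE or by the upper quartile, testing without a filter or with 10 or more counts required in every library, a replicate block, leaving out each mouse, and fold thresholds of 1 and 2 (log2). RPKM is TMM-scaled CPM per kilobase of the deposited gene length. Detection floors of 3 counts cover counting error only. How many of all tested genes had an unadjusted p under 0.05 was not counted, so counts at that cut-off have no share beside them. Coordinates follow GRCm38 (GENCODE M21), the assembly named mm10, which held 54409 of the 54532 identifiers. Values by mouse are given for genes past the threshold, for the gene highest per length in each class over all 6 mice and for developmental pairs, except for a few genes not reported here, and up to 5 called genes are named per companion list. Gabra3, Gabra5, Gabrg1, Gabra4, Gria4, Grik1, Glrb, Gabrp and Shank3 fall outside that rule and were chosen after their values were seen. No same-group pair of libraries agreed within sampling noise (chi-square per degree of freedom 8.86 to 33.3).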

Additional observations from a re-analysis of the deposited data

How the results depend on the processing

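Gabra2 kept its direction and its adjusted p call in all 13 alternative fits. Its log2 fold changes were 1.86 to 2.24, some of them under the fold threshold of 2. The 1 higher subunit gene became 2, with Grik1 added, without the filter and with DESeq2, which was run on the unfiltered table with its own independent filtering, and stayed 1 with a fold threshold of 1 or 2. The 4 lower genes became 8 without the filter, 11 with DESeq2 (each including the 4), 6 with RLE scaling, and 0 with a log2 fold threshold of 1 or 2. Leaving out each mouse gave 1 to 2 higher genes (2 without mutant mouse 1) and 0 to 7 lower genes: 0 without WT mouse 2, 1 without mutant mouse 1 or 2, 2 without WT mouse 3, 6 without WT mouse 1 and 7 without mutant mouse 3. Over all genes, calls dropped from 2502 to 68 without WT mouse 2, to 723 without mutant mouse 2, to 888 without mutant mouse 1, and to 1608 and 1627 without WT mouse 1 and 3, and rose to 2904 without mutant mouse 3.

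With the replicate number as a block, the lower genes numbered 1 (Glra2, adjusted p = 0.0403 in edgeR) and calls over all genes 562, with an adjusted p of 0.0607 for Grin1 in edgeR and 76.9% of calls higher against 58.9%. Same-numbered mice did not deviate together (correlations across genes of -0.01, -0.21 and -0.29), and 0 of 3 mice of either group matched best with their own number, so the pairing was not used.

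The cause of these moves was not tested. No scaling moved the median of all genes by more than 0.1.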
